A study of Mus musculus with 6 samples.

Results

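Chemokine and inflammatory cytokine transcripts were followed in mouse BM cells cultured with NUP-17d. The group held 10 genes of the 17060 listed in at least 1 library, chosen by symbol: the CC chemokine genes Ccl2, Ccl3, Ccl4, Ccl6 and Ccl9, the CXC chemokine gene Cxcl2, the inflammatory cytokine genes Il1b, Tnf and Il6, and Il1rn, which encodes the IL-1 receptor antagonist. Lineage-negative BM cells of WT mice, a fraction depleted of mature blood cells and rich in stem and progenitor cells, were kept in an EPO induction culture, in which they mature into erythroblasts. They were given either the vehicle DMSO, labeled NC, or NUP-17d, a small molecule selected to bind the protein Plek2, for 48 hours. RNA of 3 cultures per condition was sequenced, and both conditions share the WT genotype, the purification and the EPO culture. The age of the mice, and how many mice gave each culture, were not given in the sources used here. No sort of the cells between culture and RNA extraction is described, so each library can be a mixture, and a smaller number of cells of a type and less RNA per cell cannot be told apart.

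Chemokines are small secreted proteins that attract leukocytes through receptors on their surface. The CC members bind receptors such as Ccr1 and Ccr2, whereas Cxcl2 attracts neutrophils through Cxcr2. IL-1β, TNF and IL-6 start and spread inflammatory responses, and the antagonist made from Il1rn occupies the IL-1 receptor without activating it. In BM these transcripts are known mainly from myeloid cells, and many of them are induced by NF-κB and kept short-lived by proteins that bind AU-rich elements.

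The expected counts, the authors' estimates of reads per gene, gave library totals between 20278433 and 20419018 for DMSO, and between 20076409 and 20170197 for NUP-17d. Hemoglobin genes took 18.3% to 20.3% of them with DMSO and 11.8% to 13.1% with NUP-17d, so the remaining genes shared a larger part of each NUP-17d library. Counts were therefore scaled by TMM, edgeR's correction for library composition, and are given as CPM, the count divided by the scaled library total, after this scaling unless another scale is named. Of the 12306 genes that passed the filter on low counts, 4346 (35.3%) were called at an adjusted p under 0.05 in edgeR's quasi-likelihood test, 2019 higher (16.4%) and 2327 lower (18.9%) with NUP-17d. Scaling by library totals alone called 8458 genes (68.7%) higher and 657 (5.34%) lower. On the log2 scale it moved the median change of the tested genes from 0.01 to 0.28. The 12 erythroid markers were all called lower under TMM, and Plek2 was at 52.6 ± 2.85 CPM with DMSO and 39.9 ± 1.32 CPM with NUP-17d (SD, n = 3; log2 fold change -0.40, adjusted p 1.78e-07). The compound is aimed at the protein, so this level is no check of the labels.

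All 10 genes were detected in every library and passed the filter. With NUP-17d, 3 of them fell: Ccl6 fell by 17.5%, Ccl9 fell by 14.7% and Cxcl2, at under 1 CPM in every library, fell by 46.8%. None rose, and the background shares were 18.9% lower and 16.4% higher. With 10 genes, 3 lower calls give no ground to set the group apart from the tested genes as a whole. At an unadjusted p under 0.05, 0 were higher and 5 lower in edgeR, where 21.5% of all tested genes were higher and 22.4% lower. DESeq2 gave 0 higher and 2 lower, against 15.2% and 19.1% of all genes. The groups did not overlap in TMM-scaled CPM for 5 of the 10, against 46% of all tested genes. The median log2 fold change of the 10 was -0.28, beside 0.01 over all tested genes. These counts depended on the scaling: with library totals only, 3 genes were called higher (Ccl2, Ccl3 and Tnf) and 0 lower. On that scale, 68.7% of all tested genes were called higher and 5.34% lower.

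**Figure D1:**
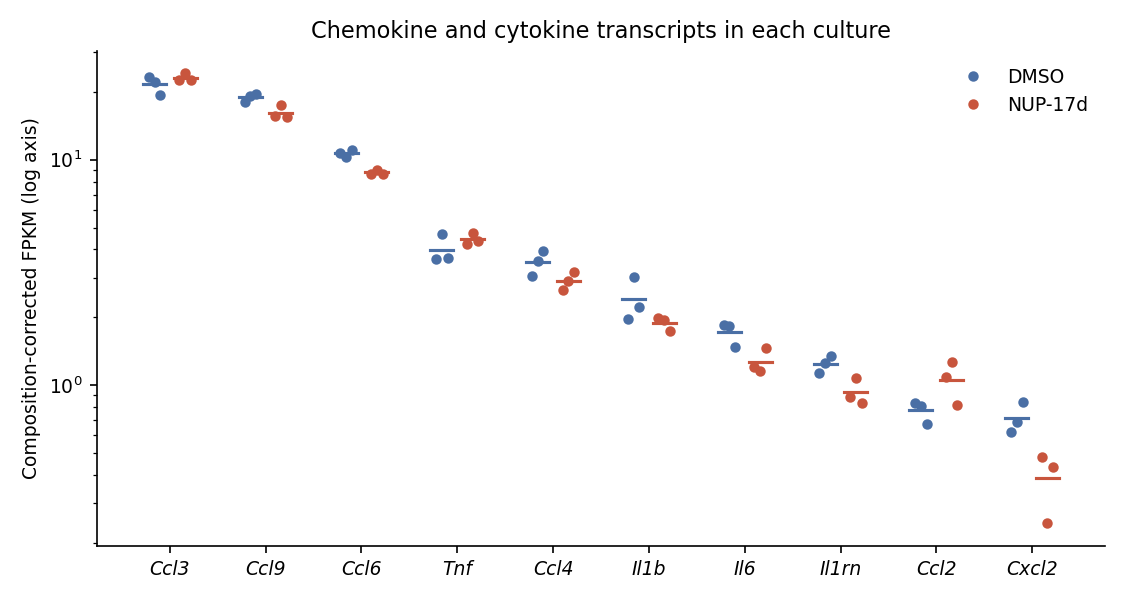
Composition-corrected FPKM (log axis) of the 10 genes in each of the 3 DMSO (blue) and 3 NUP-17d (red) cultures, ordered by the DMSO mean, with bars for group means. The levels run from 21.7 for Ccl3 to 0.716 for Cxcl2 with DMSO, and the points of Ccl6, Ccl9, Cxcl2, Il1rn and Il6 are separated between the groups.

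Levels of different genes were compared per length, as FPKM divided by the TMM factor. With DMSO, Ccl3 was highest at 21.7 ± 2.08 and Ccl9 next at 18.9 ± 0.77, and the values of these neighbors overlapped between libraries (SD, n = 3 throughout). Ccl6 followed at 10.6 ± 0.339, Tnf at 3.99 ± 0.595 and Ccl4 at 3.51 ± 0.449, the last pair again overlapping. Il1b stood at 2.41 ± 0.545, Il6 at 1.71 ± 0.21 and Il1rn at 1.24 ± 0.106. Ccl2, at 0.772 ± 0.0851, and Cxcl2, at 0.716 ± 0.112, were lowest and overlapped. Ccl3, Ccl9 and Ccl6 thus carried 33.1%, 28.9% and 16.2% of the summed per-length level of the 10 genes.

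With NUP-17d the order of the upper 7 was the same. Ccl3 was at 23.2 ± 0.86 and no longer overlapped with Ccl9 at 16.2 ± 1.13, and Ccl6 was at 8.79 ± 0.225. Ccl2, at 1.05 ± 0.223, stood above Il1rn, at 0.929 ± 0.122, but overlapped with it and with Il6, at 1.27 ± 0.168. Cxcl2 was lowest at 0.386 ± 0.126. The shares of Ccl3, Ccl9 and Ccl6 in the summed level were 38.0%, 26.5% and 14.4%.

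The 3 genes that fell lie in chemokine clusters on chromosomes 11 and 5. By the GENCODE M21 annotation of GRCm38, the assembly named mm10 in the submitters' processing notes, Ccl9 is at chr11:83572919-83578636 and Ccl6 at chr11:83587882-83593087, both on the minus strand, and Cxcl2 is at chr5:90903871-90905938 on the plus strand. None of the 3 shares exonic bases with another annotated gene. The 250 bases before the start site of each are printed from RefSeq (GRCm38.p6), 5′ to 3′ on the gene's strand, because these promoters belong to the only genes called. They span chr11:83578637-83578886 for Ccl9, chr11:83593088-83593337 for Ccl6 and chr5:90903649-90903898 for Cxcl2. Capitals mark matches, on either strand, to the NF-κB motif, AP-1 (TGANTCA), PU.1 (GAGGAA), C/EBP (TTGCNNAA) or the TATA box (TATAAA).
Ccl9: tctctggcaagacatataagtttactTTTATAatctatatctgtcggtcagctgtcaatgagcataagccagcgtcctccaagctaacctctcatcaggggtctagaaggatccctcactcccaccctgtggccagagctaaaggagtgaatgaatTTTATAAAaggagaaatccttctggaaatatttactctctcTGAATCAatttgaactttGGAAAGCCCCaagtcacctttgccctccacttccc
Ccl6: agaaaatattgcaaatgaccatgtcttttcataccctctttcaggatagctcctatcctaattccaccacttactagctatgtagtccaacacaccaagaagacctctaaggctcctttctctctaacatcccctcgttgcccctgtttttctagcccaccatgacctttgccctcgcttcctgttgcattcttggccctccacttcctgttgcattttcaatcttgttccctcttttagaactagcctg
Cxcl2: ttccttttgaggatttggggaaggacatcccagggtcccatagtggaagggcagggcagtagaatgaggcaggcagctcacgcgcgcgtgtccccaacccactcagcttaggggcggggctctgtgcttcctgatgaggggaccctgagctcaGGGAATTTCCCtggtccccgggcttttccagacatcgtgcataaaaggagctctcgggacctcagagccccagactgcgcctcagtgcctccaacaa

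The Ccl9 promoter held an NF-κB match from -35 to -26 relative to the start site, an AP-1 match from -53 to -47, and 3 TATA box matches, of which 2 overlap between -94 and -87. In the Cxcl2 promoter, 2 overlapping NF-κB matches, on opposite strands, lie between -97 and -87. None of the 5 motifs was found in the Ccl6 window. Promoters of 8 of the 10 genes were matched in the RefSeq table, with 10 start sites, Ccl2 and Ccl4 being the genes not matched. A gene was counted if any of its start sites had a match, whereas the percentages that follow are per promoter. Il1rn has more than 1 start site, and its AP-1 match lies before only 1 of them. The NF-κB motif was in 3 of these 8 (Ccl9, Cxcl2 and Il6) and in 7.25% of all 32851 promoters, AP-1 in 3 (Ccl9, Il1rn and Il6) and in 6.75%, the TATA box in 3 (Ccl9, Il1b and Tnf) and in 12.4%, PU.1 in 2 (Ccl3 and Tnf) and in 23.3%, and C/EBP in 1 (Il6) and in 9.56%. A match of letters is not evidence of a bound site, and the genes with a match included called and uncalled ones.

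Ccl9 encodes a chemokine that binds Ccr1 and is made abundantly by myeloid cells. Its expected counts were 996, 1112 and 1106 in DMSO cultures 1, 2 and 3 and 1048, 1185 and 1027 in NUP-17d cultures 1, 2 and 3. On the TMM scale these were 55.0, 58.6 and 59.4 CPM with DMSO and 47.4, 53.1 and 47.1 CPM with NUP-17d, so the highest NUP-17d culture lay below the lowest DMSO culture. Ccl9 fell by 0.23 on the log2 scale (SE 0.049, 95% interval -0.33 to -0.13, adjusted p 0.000527). It remained called without any 1 of the 6 libraries and in DESeq2 (adjusted p 0.0015), but with library totals only its log2 fold change was 0.04 (adjusted p 0.559).

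Ccl6, related to Ccl9 and also a Ccr1 ligand, changed by a similar amount. Expected counts of 277, 280 and 293 with DMSO and 274, 289 and 271 with NUP-17d gave 15.3, 14.8 and 15.7 CPM and 12.4, 13.0 and 12.4 CPM. The groups did not overlap, and the raw counts before scaling did. Ccl6 fell by 0.28 on the log2 scale (SE 0.071, 95% interval -0.42 to -0.13, adjusted p 0.00304), and it too remained called without any 1 library. On library totals alone its log2 fold change was -0.01 (adjusted p 0.901). Relative to the median of all tested genes, Ccl6 was at -0.29 and Ccl9 at -0.24 on the log2 scale.

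Ccl3 and Ccl4 encode MIP-1α and MIP-1β, which attract monocytes and lymphocytes, and Ccl3 is a ligand of Ccr1. Ccl3 (chr11:83647844-83649355) had expected counts of 334, 332 and 284 with DMSO and 394, 423 and 388 with NUP-17d. On the TMM scale it was at 18.5, 17.5 and 15.3 CPM and at 17.8, 19.0 and 17.8 CPM, with overlapping groups. Its log2 fold change was 0.09 (SE 0.071, 95% interval -0.05 to 0.24, adjusted p 0.336). Library totals alone gave a higher call, at 0.36 (adjusted p 0.000135), which is 0.08 above the median of all genes on that scale.

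Ccl4 (chr11:83662584-83664683) was at 1.99, 2.32 and 2.58 CPM with DMSO and at 1.72, 1.88 and 2.06 CPM with NUP-17d. The groups overlapped in part, from 36 to 48 expected counts with DMSO and from 38 to 45 with NUP-17d. Its log2 fold change was -0.28, as far below 0 as that of Ccl6, but with an SE of 0.189 and a 95% interval of -0.67 to 0.11 it was not called (adjusted p 0.259). In the RefSeq annotation, Ccl4 spans chr11:83648624-83664683 and runs into Ccl3 (chr11:83647843-83649378) on the opposite strand. Whether Ccl3 and Ccl4 share reads was not tested.

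Ccl2 (chr11:82035571-82037453) encodes MCP-1, the ligand of Ccr2 that draws monocytes. It had the fewest reads of the CC genes, with expected counts of 12, 12 and 10 in the DMSO cultures and 19, 22 and 14 in the NUP-17d cultures. All 3 NUP-17d counts exceeded those with DMSO, but on the TMM scale the groups overlapped, at 0.663, 0.633 and 0.537 CPM and 0.859, 0.986 and 0.642 CPM. Its log2 fold change of 0.44 was the highest of the 10 genes, and its 95% interval ran from -0.20 to 1.08 (SE 0.309, adjusted p 0.288). Library totals alone gave 0.70, a higher call (adjusted p 0.0438).

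Cxcl2 encodes MIP-2, a chemokine for neutrophils. Its expected counts were 12.0, 14.0 and 16.7 with DMSO and 11.5, 5.74 and 10.2 with NUP-17d, of which 4 are not whole, as happens where the authors' counting divides a read that matches more than 1 feature. It was at 0.663, 0.738 and 0.913 CPM with DMSO and at 0.497, 0.269 and 0.458 CPM with NUP-17d, with no overlap, NUP-17d culture 2 being lowest. Cxcl2 fell by 0.91 on the log2 scale, a fold of 0.532 (SE 0.348, 95% interval -1.63 to -0.20, adjusted p 0.0432). At this depth the call was not stable: it was lost in DESeq2 (adjusted p 0.178), with library totals only (0.0977), without the filter (0.0793), and without any 1 of the 3 DMSO libraries or NUP-17d libraries 2 or 3 (0.0568 to 0.196), and was kept without NUP-17d library 1 (0.0494). Of its paralogs, Cxcl1 had at most 1 expected count in any library. Cxcl3, with at most 16.3, moved the other way, from 0.379 ± 0.103 CPM with DMSO to 0.649 ± 0.0651 CPM with NUP-17d, without overlap. The log2 fold change of Cxcl3 was 0.77 and not called (SE 0.363, adjusted p 0.101), and with library totals only it was 1.04 (adjusted p 0.0129). Whether reads were divided between Cxcl2 and a paralog was not tested.

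**Figure D2:**
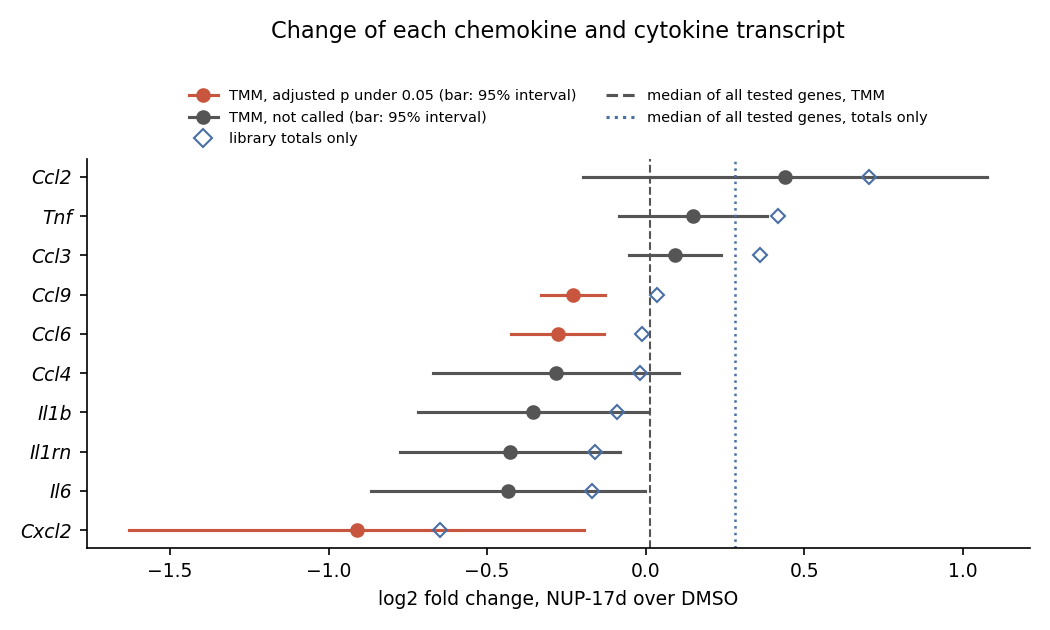
Log2 fold change of each gene, NUP-17d over DMSO, from edgeR with TMM (filled circles, bars for 95% intervals, red where called) and with library totals only (open diamonds), with the medians of all tested genes as vertical lines at 0.01 and 0.28. The order of the genes is the same on both scales, and each gene is shifted to the right with library totals only, as the median is.

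Among the inflammatory cytokines, none was called under TMM. Tnf (chr17:35199381-35202007), the most abundant of them, had expected counts of 109, 147 and 113 with DMSO and 154, 175 and 158 with NUP-17d. It was at 6.02, 7.75 and 6.07 CPM and at 6.96, 7.85 and 7.24 CPM, so DMSO culture 2 lay among the NUP-17d cultures. The log2 fold change was 0.15 (SE 0.114, 95% interval -0.08 to 0.38, adjusted p 0.326), and with library totals only it was 0.42 and called higher (adjusted p 0.00297).

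Il1b (chr2:129364570-129371139), which encodes the IL-1β precursor, was at 2.65, 4.06 and 3.01 CPM with DMSO and at 2.67, 2.60 and 2.34 CPM with NUP-17d. DMSO culture 2 stood above the other 5 libraries, and DMSO culture 1 lay at the level of NUP-17d culture 1. The log2 fold change was -0.36 (SE 0.175, 95% interval -0.72 to 0.004, adjusted p 0.119). The exons of Il1b share 25 bases with Il1bos on the opposite strand, and the strand setting of the authors' counting was not given in the sources used here.

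Il6 (chr5:30013114-30019981) was at 2.10, 2.06 and 1.67 CPM with DMSO, from 38, 39 and 31 expected counts, and at 1.36, 1.30 and 1.65 CPM with NUP-17d, from 30, 29 and 36. The groups were separated only by the gap between DMSO culture 3 and NUP-17d culture 3. The log2 fold change was -0.43 (SE 0.210, 95% interval -0.87 to -0.002, adjusted p 0.112).

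Il1rn (chr2:24336853-24351494), the antagonist gene, was at 2.82, 3.11 and 3.33 CPM with DMSO and at 2.22, 2.60 and 2.06 CPM with NUP-17d, without overlap. Its log2 fold change was -0.43 (SE 0.169, 95% interval -0.78 to -0.08), and its adjusted p of 0.0506 missed the threshold. It passed when NUP-17d library 2, the highest of its group, was left out (adjusted p 0.0427). None of its expected counts was whole, at 51.3, 58.6 and 62.5 with DMSO and 48.5, 58.3 and 44.9 with NUP-17d.

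A ratio of 2 genes within a library does not depend on the scaling between libraries. The Il1rn to Il1b ratio, the antagonist against its agonist, was 0.528 ± 0.101 with DMSO and 0.492 ± 0.0519 with NUP-17d in FPKM, and the groups overlapped (2-sided exact permutation test, p = 0.7; the smallest possible p with 3 cultures against 3 is 0.1). Another 4 ratios were chosen after the data were seen. The Ccl3 to Ccl9 ratio was 1.30, 1.16 and 0.994 with DMSO and 1.45, 1.38 and 1.46 with NUP-17d, and the groups did not overlap (exact permutation p = 0.1, adjusted over the 5 ratios 0.25). The Tnf to Il6 ratio was 1.96, 2.57 and 2.49 with DMSO and 3.52, 4.13 and 3.0 with NUP-17d, again without overlap (exact permutation p = 0.1, adjusted 0.25). These gaps cannot reach 0.05 in a design of this size.

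The other pairs overlapped. The Ccl6 to Ccl9 ratio was 0.563 ± 0.0278 with DMSO and 0.544 ± 0.0232 with NUP-17d, a fold of 0.967 (exact permutation p = 0.4, adjusted 0.5). This pair was chosen with its similar fold changes known, so the ratio adds nothing to them. The Ccl3 to Ccl4 ratio was 6.29 ± 1.39 with DMSO and 8.05 ± 0.777 with NUP-17d, with overlapping groups (exact permutation p = 0.2, adjusted 0.333).

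**Figure D3:**
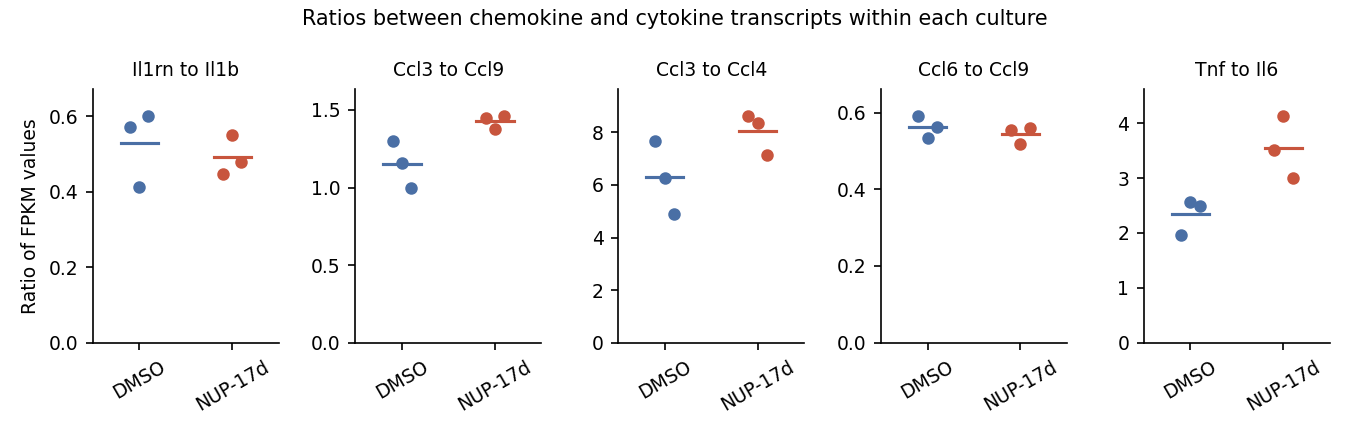
Ratios of FPKM values within each of the 3 DMSO (blue) and 3 NUP-17d (red) cultures for 5 pairs of genes, with bars for group means. The groups are separated for Ccl3 to Ccl9 (means 1.15 and 1.43) and for Tnf to Il6 (means 2.34 and 3.55) and overlap for the other 3 pairs.

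The surrounding pathway was described with 124 genes in 10 lists, of which 91 were tested, 16 were called higher and 17 lower, at background shares of 16.4% and 18.9%. Their median log2 fold change was 0.03. Other CC chemokine genes were mostly at or near 0 counts: 4 of 14 were tested, and Ccl1, Ccl8 and Ccl20 had 0 counts in all libraries. Ccl22, a ligand of Ccr4 made by dendritic cells and macrophages, was the only one called, falling from 3.51 ± 0.498 to 1.51 ± 0.238 CPM (log2 fold change -1.21, adjusted p 9.21e-06). Of the other CXC, CX3C and XC chemokine genes, 8 of 14 were tested. Pf4 of platelets (0.17, adjusted p 0.00215) and Cx3cl1 (0.72, 0.0223) rose, and Cxcl16 (-0.40, 0.0116) and Cxcl10 (-0.60, 0.0243) fell on the log2 scale, although the groups of Cxcl10 overlapped. Some of these calls rested on single libraries. The 2 higher calls became 1 without DMSO library 2, DMSO library 3 or NUP-17d library 2 and in DESeq2. The 2 lower calls became 0 without NUP-17d library 1, and 1 without DMSO library 3, without NUP-17d library 3 and in DESeq2. Of 28 other cytokine genes, 13 were tested, of which Tgfb1 rose by 0.16 (adjusted p 0.00064) and Osm, which encodes oncostatin M, fell by 0.43 (adjusted p 1.04e-05) on the log2 scale. Leaving out DMSO library 3 gave 2 lower calls in that list in place of 1.

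Receptors of these ligands moved in both directions. Of 12 receptor genes, 11 were tested, 3 rose and 3 fell. Over all tested genes, the shares for this list and the next were 16.4% higher and 18.9% lower. The second TNF receptor, Tnfrsf1b, rose from 194 ± 1.42 to 255 ± 11.2 CPM (log2 fold change 0.39, adjusted p 1.88e-09). The chemokine receptor Ccr2 fell from 182 ± 6.61 to 149 ± 10.1 CPM (-0.28, adjusted p 6.12e-06), as did Il6st, the signal-transducing chain for IL-6 (-0.25, adjusted p 0.000103). Ccr1, the receptor of Ccl3, Ccl6 and Ccl9, and Cxcr2, that of Cxcl2, were not called. Of the decoy and scavenger receptors, which bind ligands without the usual signal, 4 of 5 were tested and 2 fell: Ccrl2, from 121 ± 5.07 to 71.6 ± 3.46 CPM (-0.75, adjusted p 9.32e-14), and Ackr1, from 17.1 ± 1.14 to 10.4 ± 0.968 CPM (-0.72, adjusted p 4.86e-08). Ackr1 is the Duffy receptor, which is also expressed on erythroid cells. The scavenger receptor gene Ackr3, which is not on the list and was singled out after its values were seen, also fell (-1.10, adjusted p 9.78e-15).

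Of the genes upstream of cytokine production, most were not called. The list of inflammasome and cytokine release genes had 3 of 8 higher, Pycard (0.22, adjusted p 0.00429), Casp4 (0.26, 0.0145) and Nlrp3 (0.18, 0.0389), and 0 lower. Over all tested genes the shares were 16.4% higher and 18.9% lower. Of 18 genes of TLR and IL-1 receptor signaling, 2 rose and 4 fell, among them Tlr2 (-0.27, adjusted p 0.000171), Irak2 (-0.22, 0.000378) and Cd14 (-0.35, 0.00679), while Irak3, which restrains the pathway, was higher (0.19, 0.00512). Of 8 genes of NF-κB subunits and kinases, Rela (0.21, adjusted p 5.19e-05) and Nfkb2 (0.15, 0.0233) rose and Ikbkg (-0.17, 0.00145) fell. Of 9 inhibitor and feedback genes, Nfkbia, which encodes IκBα and is itself an NF-κB target, fell (-0.22, 0.000932) and Bcl3 rose (0.24, 0.0327). Of 8 genes for proteins that bind AU-rich elements or degrade mRNA, Zfp36l2 (0.13, 0.00273) and Zfp36l1 (0.14, 0.00539) rose and Hnrnpd (-0.21, 1.7e-05) and Elavl1 (-0.11, 0.0286) fell. Several of these counts rested on single libraries. The 3 inflammasome and release calls became 1 without DMSO library 2 or NUP-17d library 1 and in DESeq2, and the 2 higher calls of TLR signaling became 1 without NUP-17d library 2. The 2 higher calls among NF-κB subunits and kinases became 1 in DESeq2 and without DMSO library 2 or 3 or NUP-17d library 1 or 2. For the inhibitors, the higher call became 0 in DESeq2 and without DMSO library 1 or NUP-17d library 2 or 3 and 2 without DMSO library 3, and the lower call became 2 without DMSO library 1 or NUP-17d library 2. The 2 lower calls among AU-rich element genes became 1 in DESeq2 and without DMSO library 2 or 3 or NUP-17d library 1 or 3. With library totals only, 59 of the 91 were called higher and 5 lower, near that scale's shares over all tested genes, 68.7% and 5.34%.

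**Figure D4:**
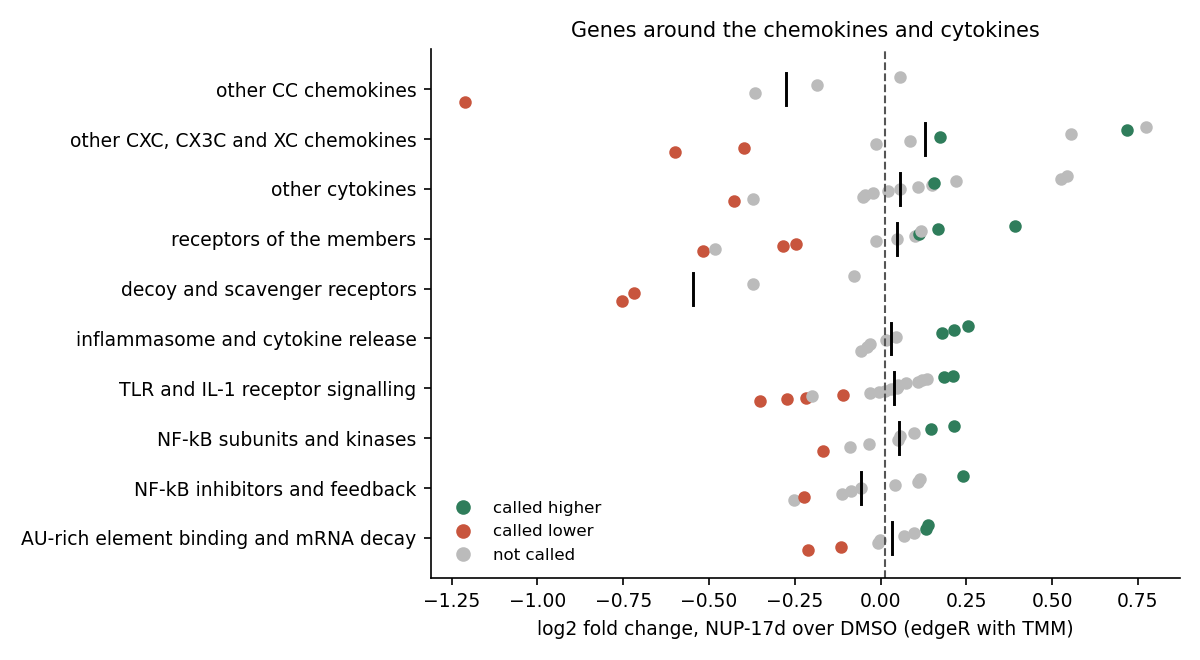
Log2 fold change, NUP-17d over DMSO, from edgeR with TMM for the 91 tested genes of the 10 lists around the chemokines and cytokines (green called higher, red called lower, gray not called), with black bars for list medians and a dashed line at the median of all tested genes. Called genes lie on both sides of the line in most of the lists, and the leftmost point is Ccl22 at -1.21.

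Markers of the cells that could make these transcripts were compared in the same fit, where 16.4% of all tested genes were higher and 18.9% lower. Of 15 monocyte and macrophage markers, 3 were higher and 5 lower, and their summed level was 4076 to 4361 CPM with DMSO and 4351 to 4683 CPM with NUP-17d. Lyz2, the most abundant, rose by 0.18 on the log2 scale (adjusted p 0.000891), Cybb fell by 0.19 (adjusted p 0.000198), and Ly6c2 was not called. Of 15 neutrophil markers, 4 were higher and 2 lower, with a summed level of 4223 to 4398 CPM and 4349 to 4629 CPM. Mpo and Elane were not called, and Ngp was higher (0.17, adjusted p 0.000416). The groups overlapped in both sums. Without Lyz2, the monocyte and macrophage sum was 1781 to 1881 CPM with DMSO and 1737 to 1855 CPM with NUP-17d, again overlapping, so the higher mean of the whole sum came from this gene. The 5 lower calls of this list became 2 without NUP-17d library 1 and 3 without DMSO library 3 or NUP-17d library 3. The part of these cells in the changes of Ccl6 and Ccl9 was not tested.

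Of 7 dendritic cell markers, 1 was higher and 4 lower, beside the same background shares of 16.4% and 18.9%. Their sum was 1225 to 1282 CPM with DMSO and 796 to 894 CPM with NUP-17d, and Cd74 (-0.61, adjusted p 2.04e-12), H2-Aa and H2-Ab1 made up most of it. These are MHC class II genes, which other antigen-presenting cells also express. Without these 3, the sum was 74.7 to 83.1 CPM with DMSO and 78.6 to 80.5 CPM with NUP-17d. Among the markers in that smaller sum, Siglech rose by 0.46 on the log2 scale (adjusted p 7.4e-07) and Cd209a fell (-0.55, adjusted p 2.01e-06). Itgax (0.003) and Flt3 (-0.07) were not called. Of 7 tested mast cell and basophil markers, 1 was higher and 3 lower (316 to 328 CPM against 292 to 303 CPM), with Prss34 and Mcpt8 lower and Gata2 not called, while Tpsab1 and Mcpt4 had 0 counts in all libraries. Of 6 eosinophil markers, 2 were lower (187 to 211 CPM against 183 to 193 CPM), among them Ear1, while Prg2 and Epx were not called. Of 7 megakaryocyte markers, 5 were higher (370 to 407 CPM against 428 to 451 CPM), among them the most abundant, Itga2b, Pf4 and Gp1ba, and Gp1bb, which changed most (0.47, adjusted p 4.85e-07). Of 9 tested T, B and NK cell markers, 2 were lower, at sums of only 32.1 to 35.2 CPM and 30.3 to 31.0 CPM, where Cd79a was lower and Nkg7 and Cd79b were not called. With 1 library left out, the mast cell and basophil list lost its higher call without DMSO library 1 or 2 or NUP-17d library 3, the eosinophil list gained 1 without DMSO library 1, and the T, B and NK cell list had 1 lower call without DMSO library 1 or 3 or NUP-17d library 1 or 2. The erythroid sum, which includes Slc4a1 and Alas2, was 24725 to 26561 CPM with DMSO and 15295 to 16177 CPM with NUP-17d. The labeled cell type, erythroblast, was thus matched by its markers in all libraries, beside myeloid transcripts. Whether the mixture of cells moved Ccl6, Ccl9 and Cxcl2 was not tested.

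**Figure D5:**
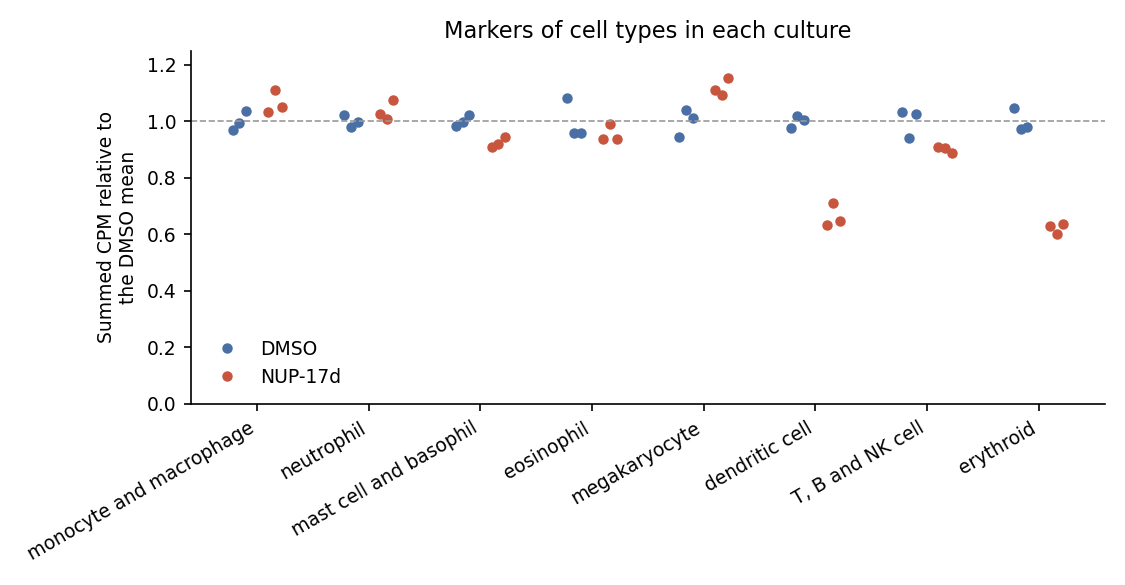
Summed TMM-scaled CPM of 8 marker lists in each DMSO (blue) and NUP-17d (red) culture, divided by the mean of the DMSO cultures. The erythroid and dendritic cell sums lie lowest with NUP-17d, the megakaryocyte sum lies above that with DMSO, and the monocyte and macrophage and neutrophil sums overlap between the groups.

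On the FPKM values that the authors deposited, which carry no correction for composition, limma called 8423 genes higher (68.4%) and 636 lower (5.17%) on log2(FPKM + 1). Among the 10 genes it called Ccl2 (0.33, adjusted p 0.00373), Ccl3 (0.35, 0.000304) and Tnf (0.35, 0.00456) higher and Cxcl2 (-0.22, 0.0239) lower on that scale. DESeq2, which corrects for composition, called 1877 of 12305 genes lower (15.3%), among them Ccl6 (-0.28, adjusted p 0.0278) and Ccl9. A change from TMM to library totals shifts every gene and the median of all genes nearly alike. A position relative to that median is thus nearly the same on both scales and says nothing about which calls hold. This does not extend to limma on log2(FPKM + 1), where the added 1 shrinks the changes of genes with low values. Relative to the median under TMM, Ccl2 was at 0.42, Tnf at 0.14, Ccl3 at 0.08 and Cxcl2 at -0.93 on the log2 scale.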

How the data were processed

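RNA of 6 cultures, 3 with DMSO and 3 with NUP-17d, was measured, and each culture's condition and number come from its sample label. Nothing says that the cultures came from separate mice, so p-values measure the spread between these cultures only. The authors deposited an expected count per gene, their estimate of reads, of which 27.8% to 28.5% were not whole, and an FPKM value, that count scaled by transcript length and library total. Genes without reads are left out of a deposited table and were taken as 0. The submitters' processing notes name the build mm10. The aligner and the counting program are not given in the sources used here, and the study's methods and the sample record name different sequencing instruments. The deposited tables list Entrez identifiers and symbols.

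Expected counts were rounded and compared with edgeR 4.0.16 in R 4.3.3 (filterByExpr with a minimum count of 10, TMM, glmQLFit and glmQLFTest, Benjamini-Hochberg adjustment over all tested genes, threshold 0.05). TMM factors were 0.887 to 0.930 with DMSO and 1.08 to 1.11 with NUP-17d. Intervals of 95% used the SE and degrees of freedom of this fit. Alternatives were DESeq2 1.42.0, library totals only, removal of hemoglobin genes, no filter, the culture number as a block, leaving out each library, and limma 3.58.1 applied to log2 FPKM with a pseudocount of 1 or 0.1. The fits were tested on simulated counts in which a small part of the genes changed, by folds balanced in both directions. No shift of composition was built in, so this simulation cannot decide between the scalings. The common biological coefficient of variation was 2.95%. Counts of any pair of libraries differed by a chi-square of 1.80 to 4.41 per degree of freedom in the same condition and of 42.5 to 80.7 across conditions. No library was thus a copy of another, and all were counted as separate samples. These values do not show that the cultures were independent. At this depth the genes with 10 to 20 expected counts are measured least precisely.

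The genes and lists were chosen with earlier results of these data known. Text names all 10 genes, up to 4 called members of each pathway list by adjusted p, the 3 most abundant members of each marker list, markers at 0 and Plek2. Other genes named (Ccr1, Cxcr2, Cxcl1, Cxcl3, Ackr3, Siglech, Cd209a, Itgax, Flt3, Gp1bb, and those of the closing section) were chosen after their values were seen. A few list members that the rule would name are not reported here.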

Additional observations from a re-analysis of the deposited data

How the results depend on the processing

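Most changes came with another scaling between libraries, and the cause of each change below was not tested. Genes called in all were 9115 with library totals only, 9059 with limma on log2(FPKM + 1) and 9038 on log2(FPKM + 0.1), and 92.8%, 93.0% and 93.0% of the calls were higher, against 46.5% of 4346 under TMM and 40.5% in DESeq2. Over all tested genes, library totals only called 68.7% higher and 5.34% lower. Of the 10 chemokine and cytokine genes, library totals only and the limma settings called 3, 3 and 3 higher and 0, 1 and 1 lower. In the same order, log2 fold changes were 0.70, 0.33 and 0.63 for Ccl2, 0.36, 0.35 and 0.37 for Ccl3, and 0.42, 0.35 and 0.42 for Tnf, all 3 genes newly called; -0.011, -0.007 and -0.007 for Ccl6, no longer called; and 0.037, 0.038 and 0.040 for Ccl9, changed in sign and not called. Cxcl2 was no longer called in DESeq2 (-0.92), with library totals only (-0.65) and without the filter (-0.91), and leaving out 1 library gave -1.08 to -0.68. For Il1rn this range was -0.53 to -0.36, with a call only without NUP-17d library 2.

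The pathway lists had 16 genes called higher and 17 lower. Higher calls were 10 in DESeq2, 59 with library totals only and 10 to 14 with 1 library left out (10 without NUP-17d library 2), and lower calls were 5 with library totals only. For the marker lists, 37 were called higher and 18 lower with library totals only, against 14 and 30. Library totals only called 68.7% of all tested genes higher and 5.34% lower. Removal of hemoglobin genes changed none of the calls of the 10 genes.

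Culture numbers were not shown to pair the samples. Deviations of same-numbered cultures from their group means correlated at 0.168, 0.105 and 0.00545 over the 10650 best covered genes, against -0.166 to 0.133 for different numbers. Under the replicate block by culture number, 2121 genes were higher and 2422 lower (2019 and 2327 without it), and the calls of the 10 genes were the same, Cxcl2 at an adjusted p of 0.049. The Il1rn to Il1b ratio, at -0.09 on the log2 scale, ran from -0.26 to 0.01 with 1 library left out, changing sign without DMSO library 3.

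Depth limits Ccl2 and Cxcl2, the genes with the fewest reads of the 10. Only relative abundance is measured, and protein was not analysed here.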

Other observations

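The deposited tables annotate 148 genes with cytokine or chemokine activity, a list taken up after the data were seen, which holds 9 of the 10 genes described above and lacks Tnf. Of these, 62 were tested, 9 were called higher and 11 lower in edgeR with TMM, and the median log2 fold change was 0.02. Over all tested genes the shares were 16.4% higher and 18.9% lower, so these counts lie near the background. Without the genes described above, 53 were tested, 9 were higher and 8 lower. Library totals alone gave 29 of the 62 higher and 2 lower, where 68.7% of all genes were higher.

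Genes that rose included Vegfa, which encodes the angiogenic growth factor VEGF-A, at 30.9 ± 0.966 CPM with DMSO and 51.0 ± 0.895 CPM with NUP-17d (log2 fold change 0.72, adjusted p 1.73e-12). Tnfsf12 (TWEAK) was at 21.1 ± 0.646 and 27.0 ± 1.41 CPM (0.36, adjusted p 2.38e-05), Tnfsf13 (APRIL) at 11.6 ± 1.15 and 14.8 ± 1.76 CPM (0.36, adjusted p 0.00244) and Cmtm7 at 99.5 ± 2.18 and 124 ± 4.77 CPM (0.32, adjusted p 2.45e-07), as SD with n = 3. Tnfsf12 and Tnfsf13 are neighbors in the genome and can share reads. Among genes that fell were Gdf15, a stress-induced member of the TGF-β family, at 78.7 ± 1.88 and 64.2 ± 4.79 CPM (-0.29, adjusted p 1.34e-05), and Gdf3 at 11.3 ± 0.405 and 9.14 ± 0.267 CPM (-0.31, adjusted p 0.00464). On library totals alone, Gdf15 was at -0.03 and Gdf3 at -0.04, and Vegfa at 0.99, on the log2 scale.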
